A study of Mus musculus with 20 samples.

Results

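Long intergenic non-coding RNA (lincRNA) loci whose exons overlap exons of another lincRNA locus on the opposite DNA strand are described here. In the deposited lincRNA annotation, the exons of all transcripts of each locus on chromosomes 1 to 19 were merged, and a locus was kept where at least 1 base of its merged exons lay in a merged exon of a locus on the other strand. The rule found 1556 loci among 27637 on these chromosomes (5.63%) and 29286 in the whole file, and these loci formed 803 opposite-strand pairs. The study sequenced RNA that came down with newly replicated DNA in 20 libraries of wild-type mouse embryonic stem cells, grown with leukemia inhibitory factor, and of wild-type NIH3T3 cells, a mouse fibroblast line. Each cell type had 5 groups of 2 libraries. A no-click control, labelled with no treatment, received DMSO in place of biotin azide, the agent that tags EdU-containing DNA for capture. The normal click pulldown was also labelled with no treatment. The click pulldowns named HU, chase and protease all carried the hydroxyurea label, and the protocol gives 4 mM for 4 h for HU samples without detailing the chase or the protease step. All cells received EdU for 10 min, and NIH3T3 cells had first been synchronized (thymidine at 2 mM over 15 h, then 2.5 h in fresh medium). The annotation holds positions of exons and no value per library, so no level in any library stands behind the results, depth is unknown, and differences between groups are not analysed here.

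RNAs read from opposite strands of the same bases are called cis natural antisense transcripts. In a head-to-head pair both RNAs start inside the overlap and are read away from each other, so the overlap holds both start regions. In a tail-to-tail pair they are read towards each other and the overlap holds both 3′ ends. In a nested pair the whole span of one locus lies inside the span of the other. The shared bases of such RNAs are complementary and can pair, and well-studied antisense lncRNAs act on the gene they overlap. A sequencing read from a shared base can be assigned to one partner only where the library kept the strand, which the labels do not state for these libraries.

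The stretches below show what opposite-strand partners share, from pairs in which both loci could be matched to genes of the GENCODE M21 annotation. The first 6 are the longest single shared stretches of 30 to 300 bases, 2 for each class. Letters come from GENCODE transcripts, are written 5′ to 3′ on the plus strand of GRCm38, and have the bases that both partners hold in exons in capitals, with up to 20 flanking exon bases of one partner in lower case.
4833411C07Rik and Gm2814, head-to-head, chr8:10900323-10900526: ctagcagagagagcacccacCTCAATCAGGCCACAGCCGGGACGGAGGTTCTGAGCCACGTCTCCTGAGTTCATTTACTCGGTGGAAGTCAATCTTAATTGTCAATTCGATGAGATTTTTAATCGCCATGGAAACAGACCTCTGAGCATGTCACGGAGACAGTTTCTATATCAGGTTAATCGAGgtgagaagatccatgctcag
Gm49334 and 9230112J17Rik, head-to-head, chr9:60545726-60545902: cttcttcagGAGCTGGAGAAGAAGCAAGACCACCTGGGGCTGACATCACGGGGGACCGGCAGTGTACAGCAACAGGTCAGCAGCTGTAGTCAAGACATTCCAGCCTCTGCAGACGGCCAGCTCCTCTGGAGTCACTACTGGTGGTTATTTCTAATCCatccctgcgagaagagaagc
Gm16741 and Gm10044, tail-to-tail, chr14:7773864-7774159: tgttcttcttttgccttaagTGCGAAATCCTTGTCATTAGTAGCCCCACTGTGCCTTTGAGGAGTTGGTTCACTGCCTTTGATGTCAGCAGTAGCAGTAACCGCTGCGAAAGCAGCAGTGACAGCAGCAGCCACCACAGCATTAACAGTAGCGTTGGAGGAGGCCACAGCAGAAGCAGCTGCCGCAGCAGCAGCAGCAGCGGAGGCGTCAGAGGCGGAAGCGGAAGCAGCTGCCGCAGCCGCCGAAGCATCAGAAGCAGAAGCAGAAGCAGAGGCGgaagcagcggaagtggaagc
Gm9939 and Gm34368, tail-to-tail, chr8:34967495-34967747: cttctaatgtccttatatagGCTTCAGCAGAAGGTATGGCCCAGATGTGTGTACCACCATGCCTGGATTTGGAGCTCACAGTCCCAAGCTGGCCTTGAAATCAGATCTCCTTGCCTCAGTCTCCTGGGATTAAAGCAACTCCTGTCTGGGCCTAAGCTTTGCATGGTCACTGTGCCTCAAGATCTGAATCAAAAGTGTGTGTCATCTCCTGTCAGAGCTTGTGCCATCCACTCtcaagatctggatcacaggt
Mcf2l and Gm15353, nested, chr8:12879878-12880165: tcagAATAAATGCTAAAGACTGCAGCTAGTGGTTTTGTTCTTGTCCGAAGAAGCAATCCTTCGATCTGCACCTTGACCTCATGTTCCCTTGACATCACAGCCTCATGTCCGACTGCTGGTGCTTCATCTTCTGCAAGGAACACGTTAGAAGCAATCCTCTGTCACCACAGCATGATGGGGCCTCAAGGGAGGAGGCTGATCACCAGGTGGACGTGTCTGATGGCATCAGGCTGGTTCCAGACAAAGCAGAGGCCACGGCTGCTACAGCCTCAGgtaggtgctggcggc
Gm42787 and Mm2pr, nested, chr5:149128564-149128801: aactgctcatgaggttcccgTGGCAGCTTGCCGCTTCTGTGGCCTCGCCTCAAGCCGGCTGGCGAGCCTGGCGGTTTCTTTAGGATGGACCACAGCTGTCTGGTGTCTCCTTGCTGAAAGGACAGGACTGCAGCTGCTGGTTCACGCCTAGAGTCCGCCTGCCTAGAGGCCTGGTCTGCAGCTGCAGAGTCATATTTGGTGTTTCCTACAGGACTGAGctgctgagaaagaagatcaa
The deposited file and GENCODE gave the same 164 shared bases for 4833411C07Rik and Gm2814 and the same 269 for Mcf2l and Gm15353. For the pair of Gm16741 and Gm10044 the file shared 186 bases against 256 in GENCODE, where the same pair is nested. The numbers also differed for Gm49334 and 9230112J17Rik, with 66 in the file and 148 in GENCODE. They were 433 and 213 for Gm9939 and Gm34368, and 236 and 198 for Gm42787 and Mm2pr. The capitals mark bases shared in GENCODE. Next to the capitals of 4833411C07Rik stand gtg on the right, where its intron begins, and cac on the left, the same letters on the other strand, where the intron of Gm2814 begins.

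Of the 803 pairs, 225 (28.0%) were head-to-head, 206 (25.7%) tail-to-tail and 372 (46.3%) nested. Loci with 1 partner numbered 1508, loci with 2 numbered 46 and loci with 3 numbered 2. The pairs formed 753 separate groups, of which 707 held 2 loci, 42 held 3 and 4 held 4. Members lay on both strands, with 776 on the plus and 780 on the minus strand.

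**Figure D1:**
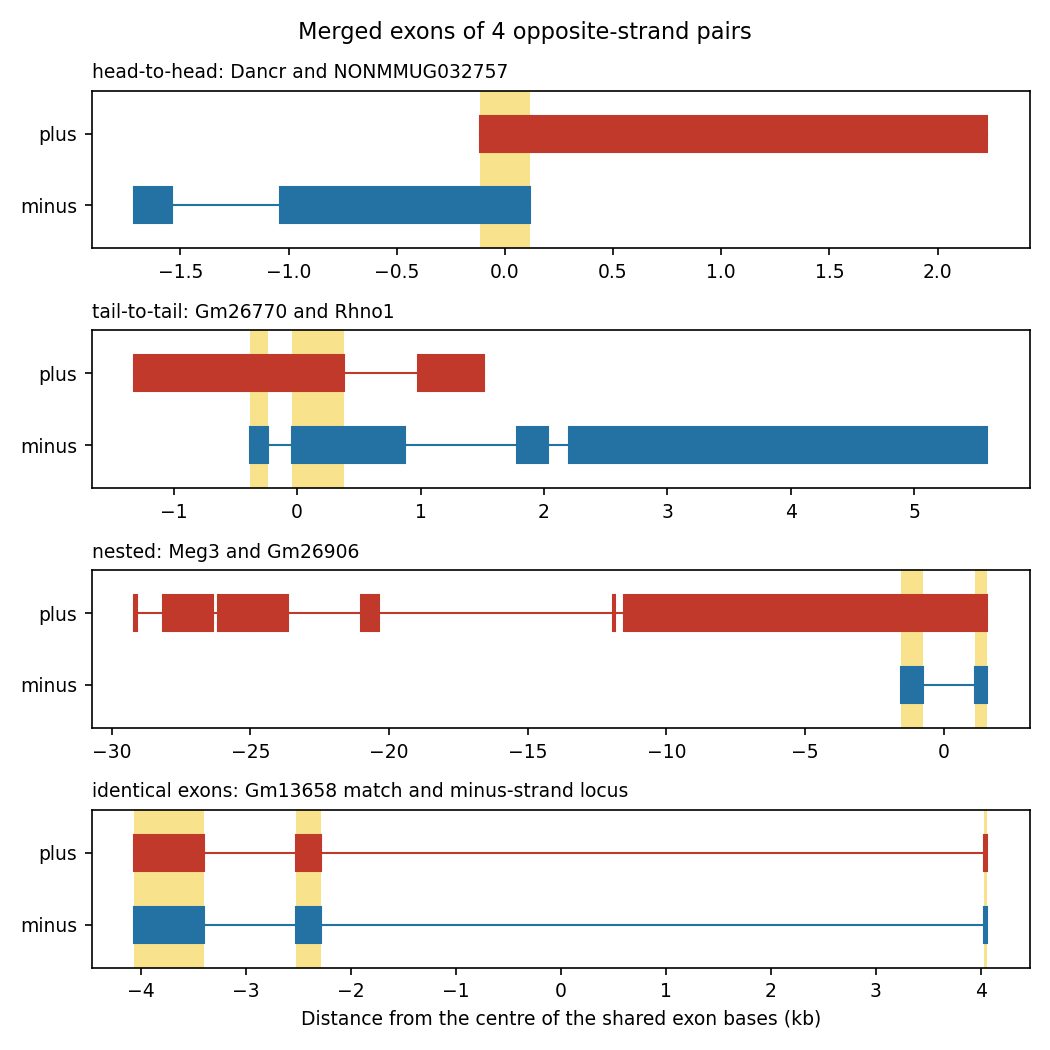
Merged exons (boxes) and introns (lines) of 4 pairs, plus-strand locus in red and minus-strand locus in blue, with shared exon bases shaded yellow, against distance in kb from the centre of the shared bases. Dancr and its partner share 235 bases at their starts. The tail-to-tail pair of Gm26770 and Rhno1 shares 561, which lie in the first exon of Gm26770 and in 3′ exons of Rhno1. Gm26906 lies inside Meg3, and the pair in the lowest panel has the same 3 exons on both strands.

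Shared exon bases were fewest in head-to-head pairs and most in nested pairs. Head-to-head pairs shared a median of 282 bases (quartiles 133 and 630, range 9 to 5625). Tail-to-tail pairs shared a median of 460 bases (quartiles 150.75 and 898.75, range 8 to 6856). Nested pairs shared a median of 614.5 bases (quartiles 259 and 1549.25, range 4 to 17313). Relative to the exon bases of the shorter partner the medians were 39.1%, 51.2% and 91.7%, in the same order. The higher nested values follow in part from the class rule. A nested pair overlaps over the whole inner span, and a single-exon locus nested in another is shared whole. In the other classes neither span lies inside the other. The wide quartiles of the 3 classes overlap, and no test was run between classes, because loci of one annotation are not replicates. More than 1000 bases were shared by 25 head-to-head pairs (11.1%), 42 tail-to-tail pairs (20.4%) and 124 nested pairs (33.3%). Over all pairs, 660371 genomic positions lay in exons of both strands. Counted once for each strand, they make up 37.8% of the exon bases summed over member loci and 2.71% of those summed over all loci on chromosomes 1 to 19.

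**Figure D2:**
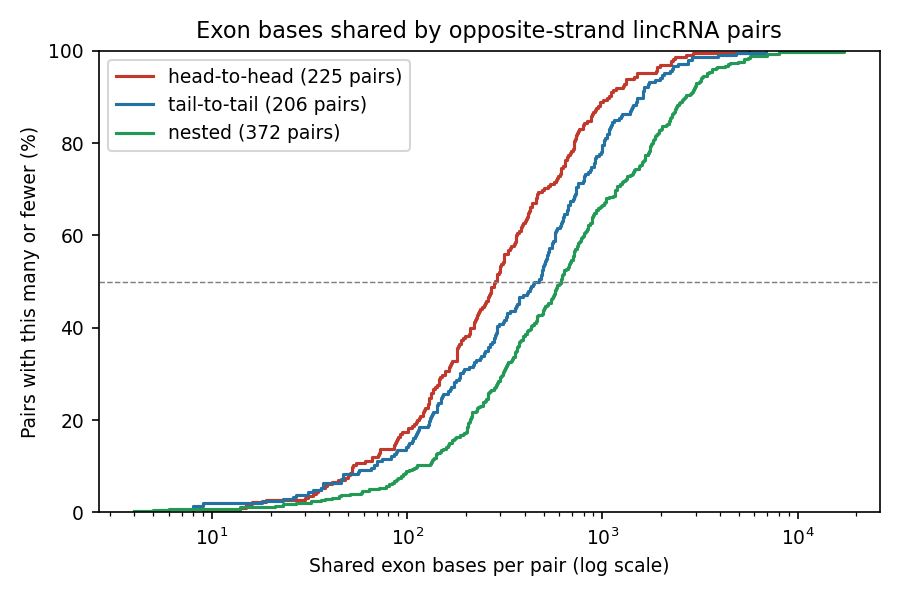
Share of pairs (vertical axis, %) that have the number of shared exon bases on the horizontal axis (log scale) or fewer, for head-to-head (red), tail-to-tail (blue) and nested (green) pairs, with a dashed line at 50%. The curves cross that line at 282, 460 and 614.5 bases.

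The shared bases of head-to-head and tail-to-tail pairs mostly formed 1 unbroken stretch. This was so in 173 head-to-head pairs (76.9%) and 174 tail-to-tail pairs (84.5%), against 192 nested pairs (51.6%), of which 135 had 2 stretches and 45 had 3 or more. In 134 head-to-head pairs (59.6%) all shared bases lay in the first merged exon of both loci. In 149 tail-to-tail pairs (72.3%) all of them lay in the last merged exon of both. Pairs of 2 single-exon loci, 28 head-to-head and 33 tail-to-tail, are counted here by construction. In most pairs an intron boundary of one locus lay inside an exon of the other, namely in 171 head-to-head (76.0%), 147 tail-to-tail (71.4%) and 303 nested pairs (81.5%).

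Exon numbers separated the inner from the outer loci of nested pairs more than they separated the classes. The median was 2 merged exons per locus in each class, with quartiles of 1 and 3. Loci with 1 merged exon made up 129 of 450 head-to-head loci (28.7%), 140 of 412 tail-to-tail loci (34.0%) and 190 of 734 nested loci (25.9%). Both partners had 2 or more merged exons in 124 head-to-head (55.1%), 99 tail-to-tail (48.1%) and 226 nested pairs (60.8%). Both had 1 merged exon in 28, 33 and 46 pairs. Shared bases were more numerous in those pairs: the median was 645 in head-to-head pairs of 2 single-exon loci against 224 where both partners had 2 or more exons. The same medians were 909 and 288 in tail-to-tail pairs and 883 and 573.5 in nested pairs. A locus with retained introns can merge to 1 exon although a transcript of it is spliced, which was the case for 28 members.

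**Figure D3:**
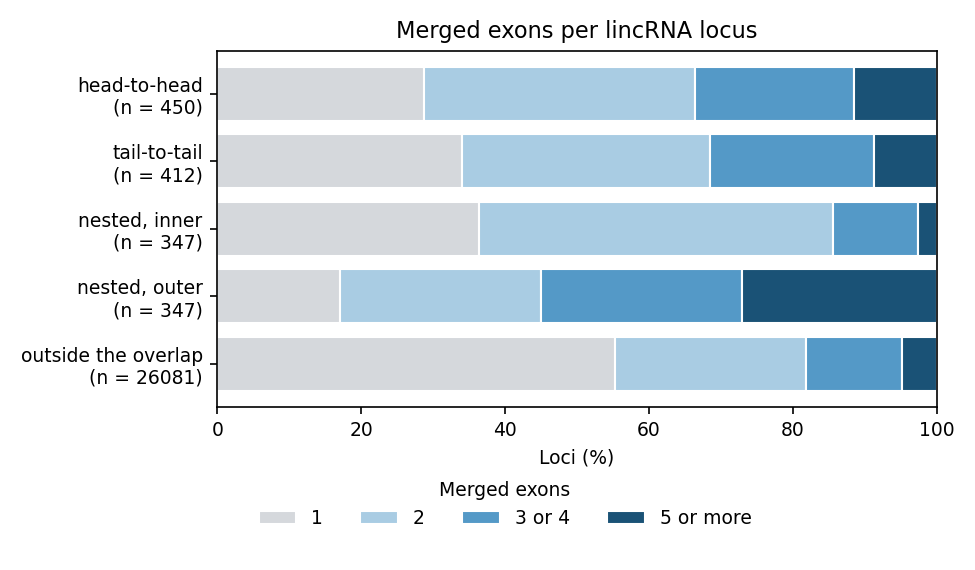
Share of loci (horizontal axis, %) with 1, 2, 3 or 4, and 5 or more merged exons, for head-to-head and tail-to-tail loci, for inner and outer loci of nested pairs, and for loci on chromosomes 1 to 19 outside the overlap. Single-exon loci make up 17.0% of outer loci and 55.3% of loci outside the overlap.

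In nested pairs the outer locus usually had the larger number of exons. In 25 nested pairs both spans were equal, which left 347 pairs with an inner and an outer locus. The outer loci had a median of 3 merged exons (quartiles 2 and 5, maximum 16) and a median span of 7748 bases. The inner loci had a median of 2 (quartiles 1 and 2, maximum 8) and a median span of 1945 bases. The outer locus had more exons in 216 pairs, the inner locus in 27, and the numbers were equal in 104. Exon numbers were not compared at matched spans. The inner locus lay within a single exon of the outer locus in 104 pairs (30.0%), of which 59 had an outer locus of 1 merged exon and 39 an inner locus of 2 or more merged exons. All exon bases of the inner locus were shared in 120 pairs. The middle of the inner locus fell in the first, middle and last stretch of equal length of the outer span, counted from the outer start, in 98, 144 and 105 pairs. More than 1 transcript was catalogued for 215 outer and 61 inner loci.

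Among head-to-head pairs, the starts of NONMMUG040348 and NONMMUG040347 on chromosome 8 were closest, with 14 bases from one start to the other, both included. They were followed by NONMMUG026182 and NONMMUG026177 on chromosome 3, with 16 bases. The next pair, NONMMUG025345 and NONMMUG025344 on mm9 chromosome 2 (159773077 to 159807025 and 159737509 to 159773112), matched 4933416E03Rik and Gm14223 and shared 36 bases in both annotations. Pldi, a spliced lincRNA studied in mouse testis, shared 33 bases with Gm26947 in both annotations. There the shared bases end on each side where an intron of one partner begins, in the first exon of Pldi and inside Gm26947. Both short stretches are printed in full, with capitals as above and GRCm38 positions, as examples of short head-to-head overlaps, though shorter ones exist.
4933416E03Rik and Gm14223, chr2:159947339-159947396: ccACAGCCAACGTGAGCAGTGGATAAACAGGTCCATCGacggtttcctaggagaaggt
Gm26947 and Pldi, chr10:60937910-60937982: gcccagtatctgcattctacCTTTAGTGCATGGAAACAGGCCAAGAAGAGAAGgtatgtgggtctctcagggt
At the other end of the range, NONMMUG018518 and NONMMUG018517 on chromosome 17 (50378533 to 50385641 and 50376216 to 50384633) shared 5625 bases, which is 95.7% of the exon bases of the shorter locus. NONMMUG017592 and NONMMUG017591, also on chromosome 17, shared 2914 bases, and NONMMUG034708 (Gm26809) and NONMMUG034707 on chromosome 6 shared 2669 in 3 stretches. The pair with the most exons was NONMMUG026684 with NONMMUG026681 on chromosome 3, matched to 4921539H07Rik and 1700007F19Rik, with 20 merged exons in all, 1011 shared bases in 5 stretches, and 47034 bases of common span. NONMMUG040868 and NONMMUG040867 on chromosome 8 (Gm35256 and 1700026F02Rik) had 19 exons in all and shared 407 bases, all in their first exons. GENCODE gave less overlap for both: 4921539H07Rik and 1700007F19Rik shared 214 bases and were nested, and Gm35256 and 1700026F02Rik shared none.

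Dancr and Mirg were the listed lncRNAs with a head-to-head partner. Dancr, a lncRNA named for its role in blocking differentiation and host of a small nucleolar RNA, matched NONMMUG032758 (chromosome 5, 74489085 to 74491430, plus strand). Its partner NONMMUG032757 (74487489 to 74489319) shared 235 bases, and 1 start lay 235 bases from the other. Mirg, a maternally expressed RNA of an imprinted cluster that hosts microRNAs, matched NONMMUG009975 (chromosome 12, 110967974 to 110987668). It had 14 merged exons and shared 808 bases in 2 stretches with NONMMUG009973 (110957602 to 110971768), a locus of 2 exons. Further head-to-head members matched genes that GENCODE calls protein-coding: Tunar, known as a pluripotency and neural RNA, shared 364 bases with NONMMUG009852, and Nlrc5, the transactivator of MHC class I genes, shared 338 with 9330175E14Rik. Nlrc5 and 9330175E14Rik shared 78 bases in GENCODE. Slc16a7, a monocarboxylate transporter gene, shared 714 bases with NONMMUG004958. A match rests on a run of exon and intron lengths, so it shows that the locus holds part of the gene's structure and not that it is the coding transcript.

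Tail-to-tail overlaps reached from a few bases to almost whole loci. The ends of NONMMUG002740 and NONMMUG002741 on chromosome 1 overlapped by 9 bases, those of NONMMUG033290 (9330198I05Rik) and NONMMUG033291 on chromosome 5 by 31, and those of NONMMUG016183 and NONMMUG016184 on chromosome 16 by 33. NONMMUG018559 (chromosome 17, 52416652 to 52451487, plus strand) and NONMMUG018560 (52438288 to 52490524) shared 6856 bases, 86.7% of the shorter locus. NONMMUG039424 (Gm33248) and NONMMUG039425 on chromosome 7 shared 4839 bases. NONMMUG015828 and NONMMUG015829 on chromosome 16 shared 3904 bases, 98.3% of the exon bases of the shorter locus. NONMMUG042010, which matched Gm26870 near the start of chromosome 9, had 46 merged exons, the most of any member, and shared 808 bases in 4 stretches with NONMMUG042009. Rhno1 encodes a protein that binds the RAD9-HUS1-RAD1 clamp and takes part in ATR signalling at damaged forks. Its match NONMMUG036675 (chromosome 6, 128306962 to 128312929, minus strand, 4 merged exons) shared 561 bases with NONMMUG036674, matched to Gm26770.

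Nested pairs held the largest overlaps and 4 of the 6 known lncRNAs found among the members. NONMMUG033079 (chromosome 5, 100159710 to 100183243, plus strand) lay inside NONMMUG033080, matched to Gm38413, started at the same base as that locus ended, and shared 17313 bases in 9 stretches. NONMMUG033189 shared 8004 bases with NONMMUG033187 on the same chromosome, whose 16 merged exons spread over 104999671 to 105178253. NONMMUG011266 shared 7981 bases, 99.7% of its exon bases, with NONMMUG011265 (Gm36445) on chromosome 13. Many exons did not go with large overlaps everywhere: NONMMUG012456 and NONMMUG012455 on chromosome 14 shared 140 and 148 bases with the 16-exon locus NONMMUG012454, matched to 4933413J09Rik.

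Meg3, a maternally expressed imprinted lncRNA, matched NONMMUG009962 (chromosome 12, 110779206 to 110809939, plus strand, 27 transcripts). Gm26906, matched by NONMMUG009964 (110806838 to 110809933), lay wholly inside the last exon of Meg3 and shared all 1228 bases of its 2 exons, 802 of them in the larger. Miat, a nuclear lncRNA of neurons also called Gomafu, matched NONMMUG033401 (chromosome 5, 112642148 to 112658415). All 718 exon bases of NONMMUG033402 (Gm26953) were shared with it. Snhg3, a host of small nucleolar RNAs, matched NONMMUG030867 (chromosome 4, 131903929 to 131909601) and shared 751 bases in 4 stretches with NONMMUG030868 (Gm17300). Neat1, the scaffold of paraspeckles, matched NONMMUG020673 on chromosome 19 (5824708 to 5845704, minus strand), which merged to 1 exon and held 3 plus-strand loci entirely: NONMMUG020674, NONMMUG020675 and NONMMUG020676, with 1192, 2224 and 1432 exon bases. Of 22 listed lncRNAs, 14 had a matching autosomal locus and 6 of these were members. The 8 others (Rian, H19, Gas5, Snhg1, Snhg5, Snhg12, Epb41l4aos and Lncpint) had no catalogued partner with shared exon bases. Among all autosomal loci matched through 3 or more exons, 254 of 2654 were members. The listed genes were picked by name and not compared at equal length or number of transcripts, so their share is no trait of known lncRNAs. No locus was matched to Malat1, Kcnq1ot1, Airn, Tug1, Hotair, Hottip, Dleu2 or Mir17hg. A match needs a transcript of 3 or more exons or a matched partner, so the matching cannot show whether these genes are members. On the same strand as Neat1 and near it, the unmatched locus NONMMUG020671 (5795076 to 5802772, 1 merged exon) was a member. It held NONMMUG020672 inside, with 5315 shared bases. Rmst, a lncRNA of neural differentiation that was not on the list, matched NONMMUG004396 on chromosome 10 and shared 1957 bases with Gm26700.

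Besides Neat1, 1 locus had 3 partners. NONMMUG011629 (chromosome 13, 95063989 to 95075949, plus strand, matched to Gm48102) overlapped NONMMUG011628 (Gm32089) head-to-head by 122 bases, held NONMMUG011630 inside with 81 shared bases, and met NONMMUG011631 tail-to-tail with 143 shared bases. Gm48102 and Gm32089 shared no exon bases in GENCODE. Among loci with 2 partners, the lowest numbered was NONMMUG000008 on chromosome 1 (3456668 to 3503634), a 250-base RNA of 2 exons. Its first exon shared 101 bases with NONMMUG000007 and its last exon shared 149 with NONMMUG000009, both single-exon loci, so that all of its exon bases had a partner.

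Some pairs were mirror images of each other. In 12 pairs the merged exons of the plus-strand locus and of the minus-strand locus were identical to the base: 3 pairs had 1 exon, 8 had 2 and 1 had 3. These pairs had 320 to 4371 exon bases (median 1588). In all 12 the locus numbers followed each other directly, as in many other member pairs. The share over all pairs was not counted, so this does not set mirror pairs apart. An intron with the same first and last base was catalogued on both strands in 28 pairs, of which 25 were nested, 2 tail-to-tail and 1 head-to-head. The 28 pairs make up 5.89% of the 475 pairs in which both loci have a spliced transcript. In 15 of them both loci had 2 exons, and in 22 all exon bases of the shorter locus were shared. A common outer edge on both strands was found in 86 nested pairs, 61 with 1 edge and 25 with both.

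Few loci of the mirror pairs, as of all pairs, could be matched to GENCODE genes. Neither locus was matched in 23 of the 28 pairs, 1 locus in 3 and both in 2, beside 72 of all 803 pairs with both matched. Matching from lengths alone needs a transcript of 3 or more exons, which 13 of the 28 pairs had in at least 1 locus, so a missing match does not show that GENCODE lacks the locus. NONMMUG023469 and NONMMUG023468 (chromosome 2, 75274114 to 75282236) had the same 3 exons with 929 bases. The plus-strand locus matched Gm13658, and the lengths of the minus-strand locus fitted the same gene once its strand was swapped. With strands swapped, 3 members matched a GENCODE gene, and 2 of them belonged to mirror pairs: NONMMUG023468, and NONMMUG038590, whose partner NONMMUG038589 matched Gm2115 with the strand as filed. Among 294 opposite-strand pairs of all autosomal long non-coding genes of GENCODE, 1 had an intron on both strands and none had identical exons. That pair, Gm13663 and Gm17250 on chromosome 2, was also in the deposited file as NONMMUG023362 and NONMMUG023363, with 618 shared bases in both annotations. The second shared stretch begins at the right end of the common intron and is shown because both strands use that boundary.
Gm13663 and Gm17250, chr2:71750011-71750182: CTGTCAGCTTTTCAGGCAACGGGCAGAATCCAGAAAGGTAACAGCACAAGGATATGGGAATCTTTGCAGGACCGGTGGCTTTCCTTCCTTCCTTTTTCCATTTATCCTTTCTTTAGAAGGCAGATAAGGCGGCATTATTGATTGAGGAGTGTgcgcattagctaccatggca

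Beside the other loci on chromosomes 1 to 19 in the deposited file, member loci were longer and more of them were spliced. A spliced transcript was catalogued for 1134 members (72.9%), against 11826 of the 26081 loci outside the overlap (45.3%). The median number of merged exons was 2 in members (mean 2.59) and 1 outside (mean 1.84). Median exon bases were 1644.5 and 1396, and median spans were 3510 and 2302 bases. More than 1 transcript was listed for 521 members (33.5%) and for 4052 loci outside (15.5%). Because a locus with more exon bases has more places to meet another, these sizes are not independent of the rule, and no test was made. Within bins of exon bases the share of loci in the overlap was higher for loci of 2 or more exons than of 1. It was 6.23% against 2.43% for loci under 1 kb and 9.29% against 3.03% at 1 to 2 kb. At 2 to 4 kb it was 11.2% against 3.06%, and at 4 kb or more 18.9% against 5.45%. Spans were not matched in these bins. Outside the overlap the median span was 4060 bases for spliced loci, against 2302 for all. Whether span accounts for the difference was not tested. By exon number alone the share in the overlap was 3.03% for 1 merged exon, 8.01% for 2, 8.03% for 3, 9.85% for 4 and 12.3% for 5 or more. The difference in splicing was not seen when the rule was applied to autosomal lincRNA genes of GENCODE M21. There 92.7% of member genes and 94.0% of all genes were spliced. Over all GENCODE long non-coding RNA genes the shares were 81.1% and 69.5%.

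**Figure D4:**
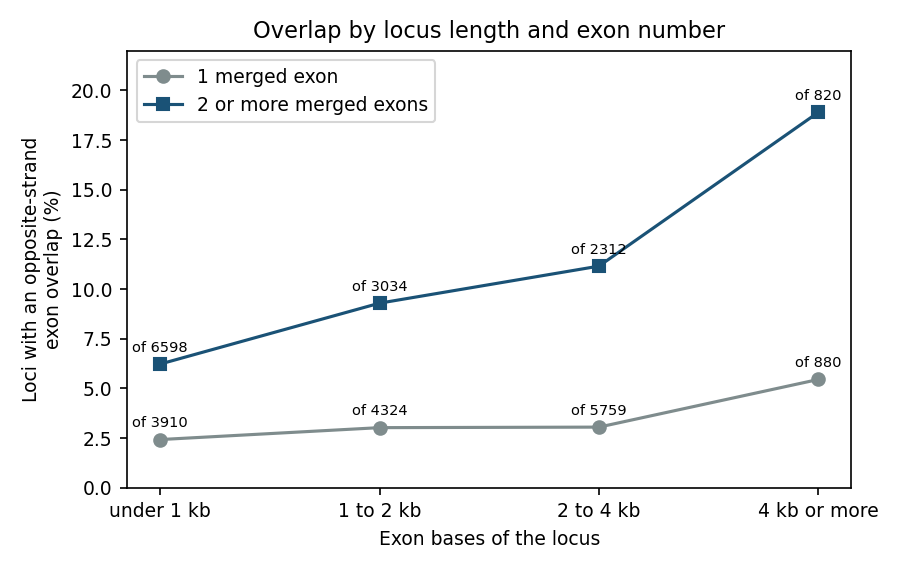
Share of autosomal loci that have an opposite-strand exon overlap (vertical axis, %) by exon bases of the locus (horizontal axis), for loci with 1 merged exon (grey circles) and 2 or more (blue squares), with the number of loci in each bin. At 4 kb or more the shares are 5.45% of 880 loci and 18.9% of 820 loci.

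By chromosome, the share of loci in the overlap ran from 3.03% on chromosome 15 (32 of 1055) to 8.56% on chromosome 17 (98 of 1145). Chromosome 19 had 8.34% and chromosome 13 had 7.22%, and the largest number of members, 122, lay on chromosome 2. On chromosome 15 the 17 pairs included 1 tail-to-tail pair, and on chromosome 10 tail-to-tail pairs (20) outnumbered head-to-head pairs (9). Spans overlapped on opposite strands in 1404 pairs, so 601 pairs met only through an intron. Exon bases were shared by 77.3% of head-to-head, 82.1% of tail-to-tail and 43.2% of nested span overlaps. Near the limit of the rule, 8 pairs shared 10 bases or fewer, with NONMMUG001753 and NONMMUG001754 at 4 bases, NONMMUG014786 and NONMMUG014784 at 5 and NONMMUG008547 and NONMMUG008546 at 6. Just outside it, exons of 9 opposite-strand pairs lay 10 bases apart or less, with NONMMUG027065 and NONMMUG027066 separated by 2 bases and NONMMUG028743 and NONMMUG028744 by 4.

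GENCODE M21 gave a second view of the pairs. Of 489 members with a transcript of 3 or more exons, 254 (51.9%) matched a GENCODE gene on the same chromosome and strand through exactly equal lengths of consecutive introns and the exon between them, against 2400 of 4495 loci outside the overlap (53.4%). A further 38 members were matched through an intron at the same distance from their matched partner. The matched genes were mostly lincRNA genes (193 of 292), followed by 40 processed transcripts, 25 antisense genes and 18 protein-coding genes. Both loci were matched in 72 pairs. In 33 of these each locus was matched by its own lengths, and in all 33 the distance between the partners was the same in both annotations. Exon bases were shared in GENCODE by 59 of the 72 pairs: 18 of 27 head-to-head, 12 of 14 tail-to-tail and 29 of 31 nested pairs. The number of shared bases was the same to the base in 27 pairs, smaller in GENCODE in 21, larger in 11 and 0 in 13.

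**Figure D5:**
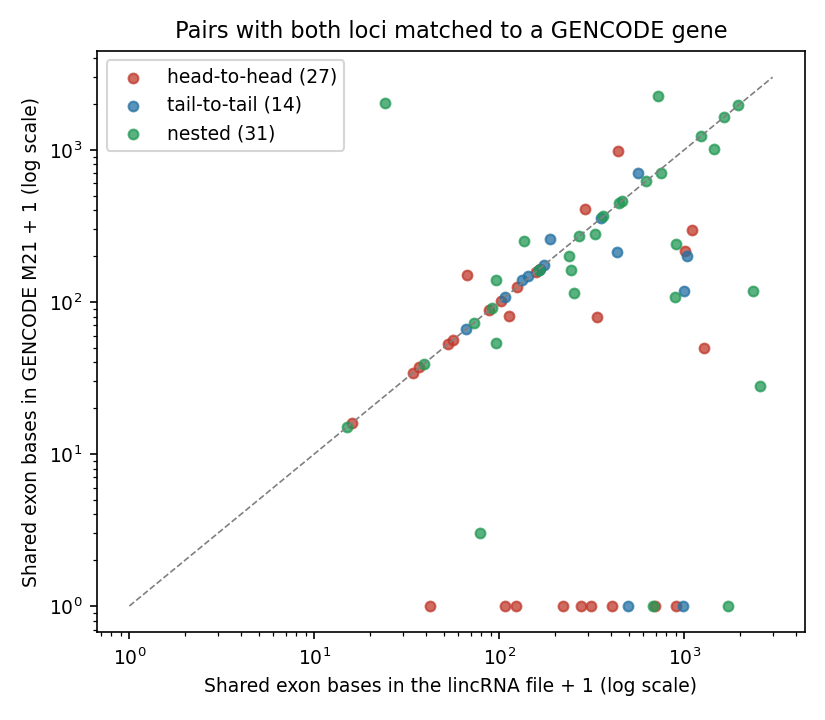
Exon bases shared in GENCODE M21 (vertical axis, log scale, 1 added) against those shared in the lincRNA file (horizontal axis, log scale, 1 added) for the 72 pairs with both loci matched, by class in the file. Points on the dashed line, 27 pairs, have the same number in both, and the 13 pairs at the bottom share none in GENCODE.

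Well-known genes lay on both sides of that comparison. Meg3 and Gm26906 shared 1228 bases in both annotations, and Rmst and Gm26700 shared 1957 in the file and 1955 in GENCODE. Snhg3 and Gm17300 shared 751 and 705 bases. Miat and Gm26953 shared 718 bases in the file, where the pair is nested, and 2260 in GENCODE, where it is head-to-head. Rhno1 and Gm26770 shared 561 and 702. Pinc, a lncRNA of the mammary gland, and D530049I02Rik shared 106 bases head-to-head in the file and none in GENCODE, where their spans still overlapped. For 8 of the 13 pairs without shared bases the GENCODE spans lay apart. The class was the same in both annotations for 47 of the 59 sharing pairs. When the rule was applied to the 5209 autosomal lincRNA genes of GENCODE itself, 248 (4.76%) were in 125 pairs, of which 39.2% were head-to-head, 28.8% tail-to-tail and 32.0% nested. Median shared bases were 126, 173 and 278.5 in the 3 classes, the same order as in the file. The place of nested pairs in that order follows in part from the class rule.

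The letters of the GENCODE transcripts were then compared between shared and unshared exon bases in the 55 matched pairs that shared at least 30 bases. Classes are those of the deposited file. The median GC content was 48.9% in shared and 47.0% in unshared exon bases of the same pairs, and shared bases had the higher value in 33 of 55. CpG dinucleotides per 100 bases were 3.17 in shared and 1.35 in unshared bases pooled over the 17 head-to-head pairs. The same values were 2.20 and 1.90 in 12 tail-to-tail pairs and 2.49 and 1.64 in 26 nested pairs. Taken pair by pair, shared bases had more CpG in 10 of 17 head-to-head, 6 of 12 tail-to-tail and 17 of 26 nested pairs, so the head-to-head value rests on part of the pairs. Promoter windows of RefSeq (GRCm38.p6, 250 bases before to 50 after a start) were found for 174 gene symbols of matched members. At least 10 CpG dinucleotides stood in 66 of their 214 windows (30.8%), against 337 of 1753 windows (19.2%) of matched loci outside the overlap and 44.0% of all 31396 autosomal windows. By class the shares were 25.7% for head-to-head, 22.9% for tail-to-tail and 37.9% for nested members. Windows were taken by symbol from all matched genes, protein-coding ones included, so they need not lie at the start of a lincRNA locus. The mix of gene types was not matched between members and loci outside the overlap.

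Where an intron of one gene began or ended inside an exon of its partner, its splice letters could be read from the partner's transcript. This gave 161 intron ends in 57 pairs, and 153 of them had the usual GT at the start or AG at the end of the intron on the annotated strand. With pairs classed as in the file, all 41 ends in head-to-head pairs and all 19 in tail-to-tail pairs did. The 8 others were in pairs nested in the file: GC at the start in Gm15738, Gm12861 and Gm26953, GG at the start in Gm26906 and Gm26896, AT at the start in Gm26700, TG at the end in Gm26896 and AC at the end in Gm13663. Of these, Gm26953 is head-to-head with its partner Miat in GENCODE. The motif AATAAA, the common signal for 3′ end cleavage, was searched on the transcript strand in the last 50 bases of GENCODE transcripts. It stood in 305 of 798 transcripts of matched members (38.2%), in 35.0% of 5140 transcripts of matched loci outside the overlap and in 33.4% of 7439 transcripts of all autosomal lincRNA genes. The share was 47.1% of 240 transcripts for head-to-head, 34.1% of 170 for tail-to-tail and 34.3% of 417 for nested members. Transcripts of one gene share ends, so these counts are descriptions.

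A nested pair was found in nearly identical copies. On chromosome 3 of GRCm38, Platr30 (96345287 to 96358480, plus strand), named as a pluripotency-associated transcript, encloses Gm26553 on the minus strand (96348627 to 96357094). Close by, Gm17575 (96375646 to 96388864, minus strand) encloses Gm26689 on the plus strand (96377033 to 96385523). The longest transcripts of Gm26553 and Gm26689 were the same in all 1818 bases, and of those of Platr30 and Gm17575 the shorter had 1934 and the longer 1991 bases. They differed by 6 bases over the length of the shorter one (99.7% identity), with the unmatched ends of the longer one not counted. Each pair shared the same 162 exon bases in GENCODE, and in the file NONMMUG027317 with NONMMUG027318 shared 162 and NONMMUG027321 with NONMMUG027320 shared 244. The longer of the 2 shared stretches is printed from both copies, where each reads as the reverse complement of the other.
Platr30 and Gm26553, chr3:96349506-96349661: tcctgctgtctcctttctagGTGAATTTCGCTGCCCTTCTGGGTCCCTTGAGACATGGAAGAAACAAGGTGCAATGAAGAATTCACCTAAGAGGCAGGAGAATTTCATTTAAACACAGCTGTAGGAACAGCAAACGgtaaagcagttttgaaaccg
Gm26689 and Gm17575, chr3:96384489-96384644: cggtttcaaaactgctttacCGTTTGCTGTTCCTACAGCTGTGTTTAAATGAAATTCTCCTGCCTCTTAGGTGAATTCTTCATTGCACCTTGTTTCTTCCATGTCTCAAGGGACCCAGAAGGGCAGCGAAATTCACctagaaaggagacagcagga
Among 118 genes of matched pairs with shared bases, no other 2 had longest transcripts within 10% of each other.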

How the data were processed

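The deposited file is an exon table in GTF format with start and end positions on mm9, 1-based, and an empty score field in each line. The submitters' processing notes name mm9, Cufflinks 2.1.1 and TopHat2 2.0.8, with no roles, and how the authors selected these models is not stated per the labels. No column of another sample was present. Exons of each locus were merged where they overlapped or touched. A pair needed 1 shared exon base, and spans with a common edge were classed as nested. Groups come from sample titles, and no comparison between libraries could be fitted. The members and gene lists were chosen with earlier results of these data known. Named pairs are the 3 of each class with the most shared bases, the most exons or the closest starts or ends, the 3 loci with the most partners, listed lncRNAs and pairs matched in GENCODE M21; other names, mirror pairs, copied pairs and the last 5 printed sequences were chosen after values were seen. GENCODE is on GRCm38, so its coordinates were never compared with mm9 positions, and 18 loci with tied matches were left out. The pairing and matching were tested on simulated data. Scripts ran in Python 3.11.15 with networkx 3.6.1, pandas 2.3.3, numpy 2.4.6, scipy 1.17.1, edlib and, for figures, matplotlib 3.10.9.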

Additional observations from a re-analysis of the deposited data

How the results depend on the processing

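No paired analysis was possible because the file holds no value per library and no result comes from a test. Of 78 values recomputed under other settings, 61 stayed within 1.5 times the reported count or within the 95% binomial interval of the reported median or share. This held for all values with at least 50 shared bases, 1 transcript per locus, gaps under 30 bases closed, chromosome X added, edges within 10 bases classed as nested, and, a choice made after seeing the data, mirror pairs left out. The intervals treat pairs or loci as independent, which they are not, so they serve as fixed limits and measure no sampling spread. A higher minimum of shared bases raises the medians by construction. With at least 200 shared bases, head-to-head pairs fell to 139, the median shared bases of the 3 classes became 470, 662.5 and 761.5, and single-exon loci made up 36.0% of head-to-head and 39.4% of tail-to-tail loci. With spliced loci only, 934 members remained in 127 head-to-head, 105 tail-to-tail and 243 nested pairs. The medians were then 227 and 290 bases in the first and second class, and loci of 1 merged exon 1.18%, 2.86% and 3.73%, by construction. With whole spans in place of exons there were 2524 members and 862 nested pairs. The order of the median shared bases was the same with either minimum and with spliced loci, and the class rule sets the place of nested pairs in part. Matching to GENCODE reaches only loci with 3 or more exons or their partners, and the file shows models, not expression.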
